A study of Mus musculus with 6 samples.

Results

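The small heat shock protein genes Cryab, Hspb1, Hspb2, Hspb6, Hspb7 and Hspb8 were examined in kidney cortex of mice, as 6 of the 24421 genes in the deposited count table. They were taken by symbol. The set was chosen by the measured level of Cryab, which was higher in cortex of mice that express I-PpoI. The group difference of Cryab is therefore a description, and its p-values are no independent support for it. The other 5 genes belong to the same family, and all 6 genes had enough counts to be among the 13977 genes tested. I-PpoI is a homing endonuclease that makes double-strand breaks at a long, rare recognition site. The 2 groups were kidney cortex of mice with I-PpoI expression specific to proximal tubular epithelial cells (PT-I-PpoI, called I-PpoI here, 3 libraries) and of wild type mice (3 libraries). The promoter or Cre line that drives the enzyme, the background strain, the age and the sex are not given in the sources used here. The labels number the samples in each group without saying that each is a separate mouse, so p-values measure only the spread between these samples.

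Small heat shock proteins share a central alpha-crystallin domain, assemble into oligomers and hold unfolding proteins in a soluble state without using ATP. The proteins are then passed to ATP-dependent chaperones of the Hsp70 class, or, through the co-chaperone Bag3, to degradation. Alpha B-crystallin, the product of Cryab, is best known from lens and muscle. In the kidney it is known as an abundant protein of the medulla, where high salt raises its level. Hspb1 is the main heat-inducible member, whereas Hspb2, Hspb6 and Hspb7 are known chiefly from muscle. Several members are targets of heat shock factors, which bind inverted repeats of the triplet GAA, called heat shock elements.

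The promoters of the family are shown first because the heat shock element is the regulatory sequence these genes are best known for. RefSeq promoter sequences (GRCm38.p6, from 250 bases before to 50 after each gene start) were matched for 4 of the 6 genes, namely Hspb1, Hspb6, Hspb7 and Hspb8, in 5 promoters. Those of Cryab and Hspb2 were not analysed here. The inverted repeat GAANNTTC, which reads the same on both strands, was present in 3 of these 4 genes. Each line below gives a 40-base stretch in the direction of transcription, with the repeat in capitals.
Hspb1, chr5:135887786-135887825, plus strand: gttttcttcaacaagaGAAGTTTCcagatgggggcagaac
Hspb1, chr5:135887806-135887845, plus strand: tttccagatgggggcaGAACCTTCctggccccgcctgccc
Hspb6, chr7:30553165-30553204, plus strand: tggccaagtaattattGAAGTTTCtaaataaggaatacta
Hspb8, chr5:116422839-116422878, minus strand: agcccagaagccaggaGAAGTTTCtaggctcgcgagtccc
In Hspb1 the repeats began 117 and 97 bases before the start. In Hspb6 the repeat began 120 bases before the downstream of its 2 starts, and in Hspb8 it began at the third transcribed base. The same 8 letters, GAAGTTTC, stood in all 3 genes, a match that was singled out after the sequences had been read. Among the 27025 genes in the promoter table, 9.04% held GAANNTTC in a promoter and 1.35% held GAAGTTTC on either strand. The other arrangement, TTCNNGAA, was found in none of the 4 genes and in 9.60% of all genes. The letters TGGAAA, the core of the element bound by the hypertonicity factor Nfat5, were found on either strand in Hspb1 and Hspb6 and in 23.9% of all genes. In Hspb1 they overlapped the first repeat. Hspb7 held none of these motifs in this window. The repeats printed above join 2 inverted triplets each. The 2 longer forms, with 3 triplets in alternating direction, were also searched. Neither was found in any promoter of the 4 genes, and they were found in 0.344% and 0.352% of all genes.

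The libraries held 13582540 to 20861021 counted read pairs each. The first principal component, with 43.1% of the variance, divided them by how the library name is written. The last number follows a hyphen in I-PpoI replicate 3 and in wild type replicates 2 and 3, and follows no hyphen in the other libraries. Whether this marks a batch is not stated in the labels. Differences within each form are therefore given beside the pooled ones. With a hyphen I-PpoI is represented by replicate 3 only, and without a hyphen wild type by replicate 1 only. Each such difference, and its sign, thus rests on that library. Levels are in CPM, counts scaled to a common library total by TMM factors, and log2 fold changes compare I-PpoI with wild type and carry their standard error (SE).

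Per kilobase of exon, the scale on which genes can be compared, Cryab was by far the most abundant of the 6 genes in every library. Its level was 107 to 126 CPM per kilobase in I-PpoI and 39.7 to 62.9 in wild type. Hspb1 followed at 13.0 to 17.4 and 9.71 to 13.3 CPM per kilobase, and Hspb6 at 9.79 to 13.2 and 10.5 to 11.2. The ranges of these 2 genes overlapped in both groups. Within libraries Hspb1 was above Hspb6 in all except wild type replicate 3, where it was at 9.71 against 10.5. Hspb8 was lower, at 4.62 to 5.42 and 3.35 to 5.42, and Hspb7 lower again, at 2.38 to 3.19 and 2.37 to 3.12 CPM per kilobase. Neither range reached that of the gene above it. Hspb2 was at 2.33 to 3.15 CPM per kilobase in I-PpoI and at 1.49 to 2.16 in wild type. Its range overlapped that of Hspb7 in I-PpoI and lay below it in wild type. Within each I-PpoI library Hspb2 was also below Hspb7, narrowly in replicate 2 (3.15 against 3.19) and replicate 3 (2.36 against 2.38). In wild type cortex Cryab made up 54.1 to 66.2% of the summed level of the 6 genes per kilobase, and in I-PpoI 74.7 to 76.6%. This share contains the Cryab counts used to choose the set, so its group difference is no separate result.

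**Figure D1:**
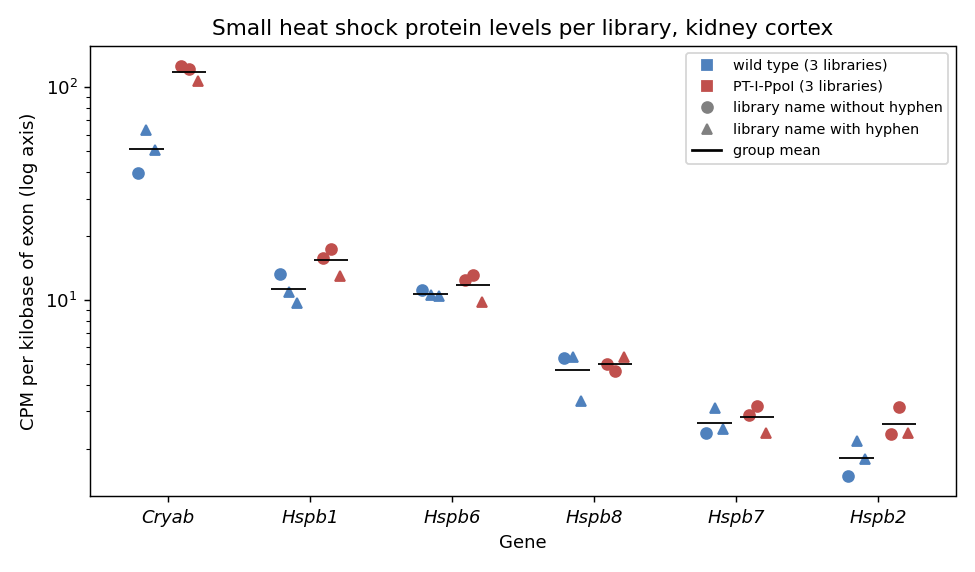
Level of each small heat shock protein gene in every library, in CPM per kilobase of exon on a log axis. Points are libraries, blue for wild type and red for I-PpoI, circles for library names without a hyphen and triangles for names with one, and bars are group means. Cryab lies between 107 and 126 in I-PpoI and between 39.7 and 62.9 in wild type, far above the other genes.

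Cryab (chromosome 9, 50751325 to 50756635, plus strand, mm10), the gene for alpha B-crystallin, was at 154, 150 and 131 CPM in I-PpoI replicates 1 to 3. In wild type replicates 1 to 3 it was at 48.7, 77.2 and 62.4 CPM. Every I-PpoI library lay above every wild type library, and wild type replicate 1 was the lowest of all. The group means were 145 ± 12.2 and 62.7 ± 14.2 CPM (SD, n = 3 each), a 2.32-fold higher level in I-PpoI (log2 fold change 1.21 ± 0.15, SE). Within library name forms the log2 difference was 1.64 without a hyphen and 0.92 with one. The gene rested on 1011 to 2909 read pairs per library. It was the 1 of the 6 genes whose edgeR adjusted p (0.0389) was under 0.05, against 0.136% of all genes tested, which is the value that chose it. That p rose to 0.189 without I-PpoI replicate 1, 0.181 without I-PpoI replicate 2, 0.0836 without wild type replicate 1 and 0.315 without wild type replicate 3. In those same fits 0, 0, 2 and 0 of all genes passed, and the log2 fold change of Cryab was 1.06 to 1.21. Bulk tissue does not tell more cells of a type apart from more RNA per cell.

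Hspb2 (chromosome 9, 50751072 to 50752354, minus strand) lies head to head with Cryab and encodes a small heat shock protein of muscle. Its start lies 617 bases from the first Cryab exon downstream of it. An alternative upstream exon of Cryab (50751325 to 50751576) falls inside an Hspb2 exon on the other strand. These 252 shared bases were 20.6% of the counted exon length of Cryab and 30.0% of that of Hspb2. Strand was not used in counting, so read pairs that touch the shared bases cannot be assigned to either gene by strand.

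**Figure D2:**
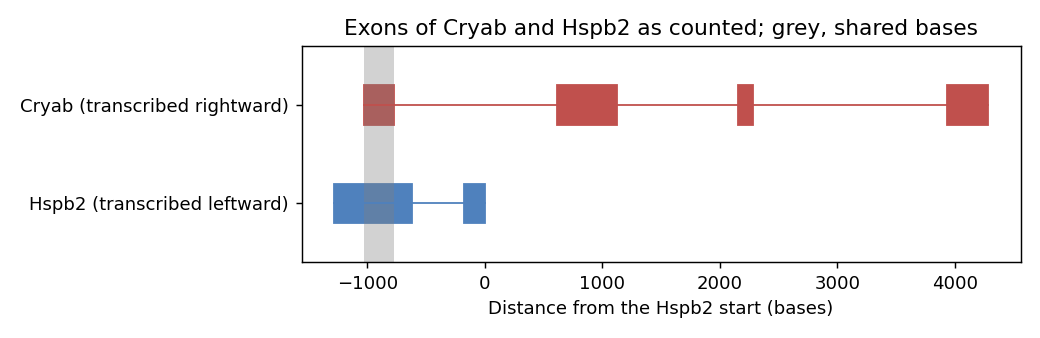
Exons of Cryab (red) and Hspb2 (blue) as counted, drawn to scale against the distance in bases from the Hspb2 start. The grey band marks the 252 bases that both genes share, and the gap from the Hspb2 start to the next Cryab exon is 617 bases.

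Hspb2 was at 1.96, 2.65 and 1.98 CPM in I-PpoI replicates 1 to 3 and at 1.25, 1.82 and 1.49 CPM in wild type replicates 1 to 3. The groups did not overlap, but I-PpoI replicates 1 and 3 lay close to wild type replicate 2. The log2 fold change was 0.55 ± 0.26 (SE; 95% interval -0.03 to 1.13; edgeR adjusted p = 0.429), so the difference did not pass the test. Within name forms it was 0.81 without a hyphen and 0.25 with one. Only 24 to 48 read pairs per library stood behind these values. The lowest I-PpoI count, 28, has a 95% exact Poisson interval of 18.6 to 40.5, which covers counting error only.

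The 2 neighbours kept different proportions in the groups. Hspb2 counts equalled 1.27, 1.76 and 1.51% of Cryab counts in I-PpoI replicates 1 to 3, and 2.57, 2.36 and 2.40% in wild type. Every I-PpoI library was thus below every wild type library in this proportion, which contains the Cryab counts used to choose the set. With lengths restricted to bases that the genes do not share, Hspb2 was at 3.33 to 4.50 CPM per kilobase in I-PpoI and 2.13 to 3.09 in wild type. On that scale Hspb2 was above Hspb7 in each I-PpoI library, where Hspb7 was at 2.38 to 3.19 CPM per kilobase. In wild type the ranges of Hspb2 and Hspb7 overlapped. The order of these genes thus depends on the length used. Adding the counts of both genes into 1 gene before the fit gave a log2 fold change of 1.20. The nearest genes on either side, 2310030G06Rik and 1110032A03Rik, had log2 fold changes of -0.06 ± 0.09 and 0.00 ± 0.09 (edgeR adjusted p = 0.800 and 0.990). The signs of both of these changed when single libraries were left out.

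Hspb1 (chromosome 5, 135887919 to 135889563, plus strand), which encodes the heat-inducible protein Hsp25 of the mouse, was at 14.3, 15.7 and 11.8 CPM in I-PpoI replicates 1 to 3. In wild type replicates 1 to 3 it was at 11.99, 9.84 and 8.77 CPM. The groups overlapped, since I-PpoI replicate 3 lay just under wild type replicate 1. The means were 13.9 ± 2.01 and 10.2 ± 1.64 CPM (SD, n = 3 each). Its log2 fold change was 0.45 ± 0.16 (SE), with a 95% interval of 0.09 to 0.81. It had the smallest p of the 5 genes other than Cryab (0.0202) and was 1 of the 6.42% of all genes that were higher at an unadjusted p under 0.05, but it did not pass (edgeR adjusted p = 0.345). The differences within name forms were 0.32 without a hyphen and 0.34 with one. The level of Cryab per kilobase was 7.04 to 8.22 times that of Hspb1 in I-PpoI and 2.99 to 5.77 times in wild type. These ratios also contain the Cryab counts used to choose the set.

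Hspb6 (chromosome 7, 30553302 to 30555439, plus strand), the gene of Hsp20, a protein of smooth and cardiac muscle, was at 16.4, 17.4 and 13.0 CPM in I-PpoI. It was at 14.8, 13.9 and 13.9 CPM in wild type, so that I-PpoI replicate 3 was the lowest library and replicates 1 and 2 of that group the highest. Its log2 fold change was 0.14 ± 0.13 (SE; 95% interval -0.15 to 0.43; edgeR adjusted p = 0.672). The sign differed between name forms, at 0.19 without a hyphen and -0.10 with one.

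Hspb7 (chromosome 4, 141420779 to 141425310, plus strand), known from heart and skeletal muscle, was at 7.94, 8.83 and 6.59 CPM in I-PpoI and at 6.55, 8.63 and 6.82 CPM in wild type. The groups overlapped over nearly their whole range. The log2 fold change was 0.10 ± 0.17 (SE; 95% interval -0.28 to 0.48; edgeR adjusted p = 0.826), and it differed in sign between name forms (0.35 without a hyphen, -0.22 with one).

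Hspb8 (chromosome 5, 116408491 to 116422864, minus strand), whose product works with Bag3 in clearing misfolded proteins, was at 9.10, 8.39 and 9.85 CPM in I-PpoI. In wild type it was at 9.73, 9.84 and 6.08 CPM, where replicate 3 alone lay low. The log2 fold change was 0.10 ± 0.19 (SE; 95% interval -0.34 to 0.54; edgeR adjusted p = 0.859), and it was -0.10 without wild type replicate 3. Within name forms it was -0.15 without a hyphen and 0.34 with one.

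None of the 5 genes other than Cryab passed the edgeR test, where 0.136% of all genes did, and none passed by DESeq2, where 1.50% of all genes did. At an unadjusted p under 0.05, Hspb1 alone of the 5 was higher by edgeR, against 6.42% of all genes. Summed over these 5 genes the level was 43.2 to 53.0 CPM in I-PpoI against 37.1 to 44.3 CPM in wild type, with I-PpoI replicate 3 below wild type replicates 1 and 2. Counting Cryab, 2 of the 6 genes did not overlap between groups, both higher in I-PpoI, as did 9.23% of all genes. All 6 had log2 fold changes above 0, as did 50.1% of all genes, with the exception of Hspb8 when wild type replicate 3 was left out. The median over the 6 was 0.29, and 0.14 without Cryab, beside 0.00 over all genes tested. The intervals of Hspb6, Hspb7 and Hspb8 reach at most 0.54 on the log2 scale, and those of Hspb1 and Hspb2 reach 0.81 and 1.13. The interval of Cryab runs from 0.86 to 1.57, so that of Hspb2 overlaps it. Cryab was chosen by its own difference, which can make its estimate too high. These intervals therefore give no fair test of whether Cryab differs from its relatives.

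**Figure D3:**
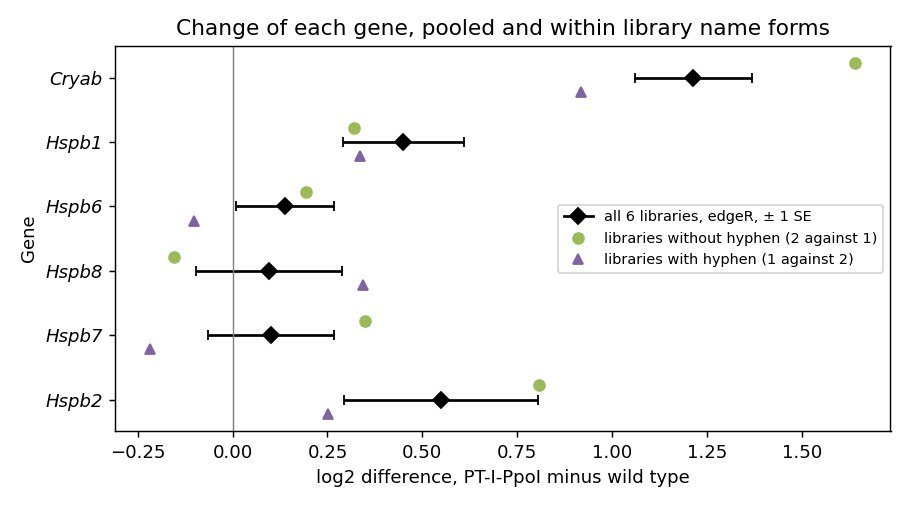
Log2 difference of each gene, I-PpoI minus wild type. Diamonds with bars are the edgeR estimate over all 6 libraries ± 1 SE, circles the difference within libraries whose names lack a hyphen, and triangles that within libraries whose names have one. Cryab stands at 1.21, and Hspb6, Hspb7 and Hspb8 have differences of opposite sign in the 2 name forms. Differences within a form rest on wild type replicate 1 alone (no hyphen) or I-PpoI replicate 3 alone (hyphen).

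Of the remaining family members in the table, Cryaa, Hspb3, Hspb9, Hspb11 and Odf1, only Cryaa and Hspb11 had enough counts to be tested. Cryaa, the lens partner of Cryab, averaged 0.43 ± 0.24 CPM in I-PpoI against 1.44 ± 0.71 CPM in wild type (SD over 3 libraries each). These means come from 5 to 39 read pairs per library, and the groups overlapped. Its log2 fold change of -1.75 ± 0.54 (SE) did not pass (edgeR adjusted p = 0.299), and was thus opposite in sign to that of Cryab. Hspb11, an intraflagellar transport protein that carries the family name, was at 8.28 against 8.13 CPM. Its log2 fold change was 0.03 ± 0.13 (edgeR adjusted p = 0.931), and its sign changed once the name form was in the model.

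The partners and regulators of the family were measured next. Of 17 genes 16 were tested, and none passed, either by edgeR (0 at an unadjusted p under 0.05 as well) or by DESeq2. Their median log2 fold change was 0.04, with 10 above 0 and 6 below. Bag3, the co-chaperone that links small heat shock proteins to Hsp70, was at 53.6 against 47.3 CPM (log2 fold change 0.18 ± 0.09, SE; edgeR adjusted p = 0.451). Mapk14, the p38 kinase upstream of Hspb1 phosphorylation, was at 110 against 124 CPM (-0.17 ± 0.09, edgeR adjusted p = 0.456). Mapkapk3, a kinase downstream of p38, was at 22.2 against 19.9 CPM (0.16 ± 0.10, edgeR adjusted p = 0.531). The heat shock factor Hsf1, chosen after its values were seen, was at 34.2 against 34.3 CPM (log2 fold change -0.01 ± 0.09).

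Genes of the hypertonicity response are listed because high salt raises Cryab in the renal medulla. Of 9 genes 8 were tested, and the aldose reductase gene Akr1b3 was listed at 0 in every library. The counting showed no option for read pairs that map to several places or touch several genes, so this 0 need not mean no expression. Its cause was not tested. None passed by edgeR. At an unadjusted edgeR p under 0.05, 5 were higher and 0 lower, where 6.42% of all genes were higher and 5.61% lower. Of the 8, 6 had log2 fold changes above 0 and 2 below. Those 2, named after their values were seen, were Hspa4l (-0.13 ± 0.09, SE) and Slc6a6 (-0.14 ± 0.21). By DESeq2 3 passed, all higher, where 1.02% of all genes were called higher, and edgeR called 2, both higher, once the name form was in the model, where 0.351% of all genes were called higher. The median log2 fold change was 0.51, and within name forms it was 0.58 (no hyphen) and 0.40 (hyphen). Slc6a12, the betaine transporter, was at 4.52 against 1.78 CPM (1.37 ± 0.34, SE; edgeR adjusted p = 0.210, DESeq2 adjusted p = 0.0180). Slc14a2, which carries urea in the inner medulla, differed by 2.32 ± 0.42 on the log2 scale (edgeR adjusted p = 0.105, DESeq2 adjusted p = 0.0194). Hspa1b, an inducible Hsp70 that shares reads with its near-identical copy Hspa1a, was at 20.5 against 13.8 CPM (0.57 ± 0.14, edgeR adjusted p = 0.201, DESeq2 adjusted p = 0.0374). The list's own factor Nfat5 was at 82.8 against 73.6 CPM (0.17 ± 0.10, edgeR adjusted p = 0.505) and was chosen after its values were seen.

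Markers of the cells in which Cryab and its relatives could be expressed moved with the groups as follows, and their part in the Cryab difference was not tested. Thick ascending limb markers summed to 7604 to 7831 CPM in I-PpoI against 5359 to 6130 CPM in wild type. Umod, named after its values were seen, was the largest part, at 4479 to 4547 against 3152 to 3472 CPM (edgeR adjusted p = 0.189, DESeq2 adjusted p = 1.53e-05). All 8 markers had log2 fold changes above 0, as did 50.1% of all genes. At an unadjusted edgeR p under 0.05, 7 were higher, where 6.42% of all genes were. By edgeR 2 of 8 passed (Ptger3 and Tmem207, each with an edgeR adjusted p of 0.0356), where 0.136% of all genes did. DESeq2 called 5 of the 8 higher, where it called 1.02% of all genes higher. Without I-PpoI replicate 1, I-PpoI replicate 2, wild type replicate 1 or wild type replicate 3, 0 of the 8 passed, and 1 did without wild type replicate 2. The best-known of them, Slc12a1, the salt cotransporter of that limb, differed by 0.63 ± 0.10 on the log2 scale (edgeR adjusted p = 0.0641, DESeq2 adjusted p = 1.28e-07). Principal cell markers of the collecting duct summed to 915 to 1037 against 662 to 697 CPM. All 8 had log2 fold changes above 0, and 6 were higher at an unadjusted edgeR p under 0.05. By edgeR 1 of 8 passed, the vasopressin receptor Avpr2 (0.86 ± 0.11, edgeR adjusted p = 0.0385), and DESeq2 called 4 of the 8 higher. The shares of all genes are those given for the thick ascending limb markers. By edgeR, Avpr2 did not pass without any one of the libraries other than I-PpoI replicate 3. Aqp2 and Fxyd4 of that list had log2 fold changes of 0.79 ± 0.17 and 0.75 ± 0.13 (edgeR adjusted p = 0.177 and 0.0757, DESeq2 adjusted p = 0.000818 and 0.000231). No marker of either list was at 0.

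Proximal tubule markers, which mark the cells that carry the enzyme, summed to 7593 to 11395 CPM in I-PpoI against 10128 to 13694 CPM in wild type. Slc34a1, named after its values were seen, was the largest part, at 3628 to 6495 against 5410 to 7985 CPM (edgeR adjusted p = 0.436, DESeq2 adjusted p = 0.304). None of 8 passed by edgeR, 3 were lower and 0 higher when p was left unadjusted (under 0.05), and DESeq2 called 1 lower. Of all genes 5.61% were lower at that unadjusted p and 0.486% were called lower by DESeq2. All 8 markers had log2 fold changes below 0. The smallest p values were those of the amino acid transporter Slc7a13 (-0.48 ± 0.14, SE; edgeR adjusted p = 0.258), Slc13a1 (-0.28 ± 0.08; edgeR adjusted p = 0.271) and Slc22a6 (-0.51 ± 0.18; edgeR adjusted p = 0.340).

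Smooth muscle and pericyte markers, relevant to Hspb2, Hspb6 and Hspb7, summed to 192 to 236 CPM in I-PpoI against 175 to 189 CPM in wild type. None of 7 tested passed by edgeR or DESeq2 (1 higher, 0 lower by edgeR when p was left unadjusted, under 0.05), and all 7 had log2 fold changes above 0 with a median of 0.28. Acta2, smooth muscle actin, was at 35.8 against 26.9 CPM (0.41 ± 0.09, SE; edgeR adjusted p = 0.199). Striated muscle markers were nearly absent, summing to 1.70 to 2.17 against 0.83 to 1.54 CPM, with Myh4 at 0 in every library and Mylpf the 1 gene tested (0.82 ± 0.27; edgeR adjusted p = 0.329). Urothelial markers summed to 4.86 to 10.5 against 3.61 to 14.8 CPM and overlapped between groups. Podocyte markers summed to 389 to 485 against 356 to 420 CPM, likewise overlapping. None of the 4 urothelial and 5 podocyte genes tested passed by edgeR or DESeq2, and 0 did at an unadjusted edgeR p under 0.05.

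**Figure D4:**
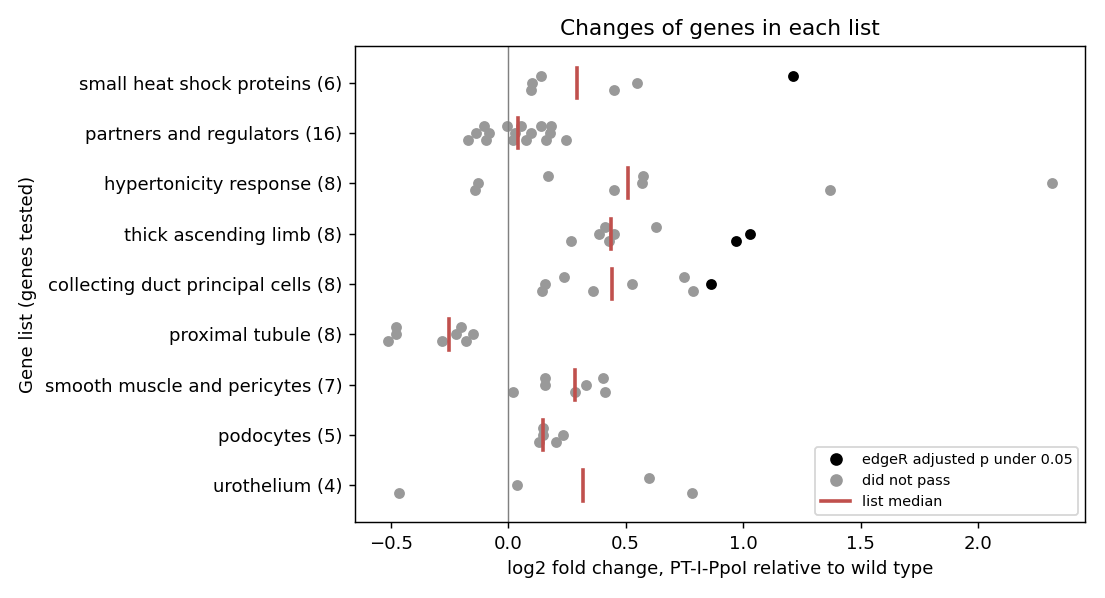
Log2 fold change of every tested gene in the small heat shock protein family and 8 further lists, I-PpoI relative to wild type. Black points passed the edgeR test at an adjusted p under 0.05, grey points did not, and red bars are list medians. The family median is 0.29, the median of the partners and regulators 0.04, and that of the thick ascending limb markers 0.44.

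The genes whose profile over the 6 libraries was most like that of Cryab were found among 10544 tested genes with a mean of at least 5 CPM. Likeness was the root mean square difference of log2 CPM, each gene centred on its own mean, and the median over all compared genes was 0.66. Such genes necessarily differ between groups as Cryab does, so their differences are given without a test. The closest was Aldoc, the glycolytic aldolase C, at a distance of 0.07 and with 31.5 ± 2.54 against 13.4 ± 2.41 CPM (SD, n = 3 each). Angpt2, the vascular ligand angiopoietin 2, followed at 0.10, with 19.4, 15.7 and 13.6 CPM in I-PpoI replicates 1 to 3 and 5.35, 8.86 and 7.22 CPM in wild type. Apela, a ligand of the apelin receptor, was at a distance of 0.16. Muc20, a membrane mucin, stood at 0.17, with 8.29 ± 0.04 against 4.29 ± 0.93 CPM. Scel, the epithelial protein sciellin, also stood at 0.17, with 7.70 ± 0.44 against 3.21 ± 1.15 CPM. In all 5 genes, as in Cryab, wild type replicate 2 was the highest wild type library, which the choice by likeness also favours. The family members were farther from Cryab than these 5 selected genes, at 0.39 for Hspb2, 0.49 for Hspb1, 0.58 for Hspb7, 0.60 for Hspb6 and 0.64 for Hspb8. All of these distances were below the median of 0.66 over the compared genes. They are measured from the Cryab values that chose the set and depend on the spread of Cryab itself. A place below the median is therefore no sign of likeness to Cryab. Hspb2, at a mean of 2.20 CPM in I-PpoI and 1.52 CPM in wild type, was not among the compared genes.

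**Figure D5:**
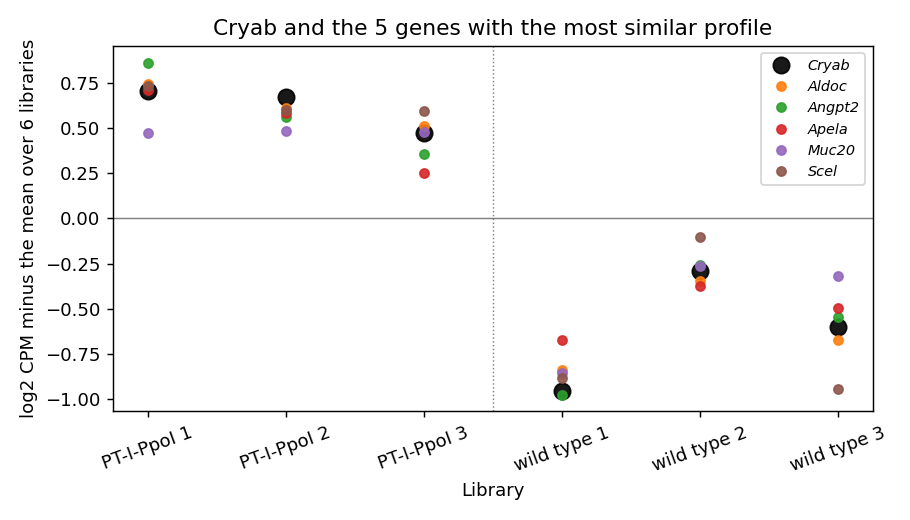
Log2 CPM of Cryab (large black points) and of the 5 genes with the most similar profile in each library, each centred on its mean over the 6 libraries. All 6 genes lie above 0 in I-PpoI and below 0 in wild type, which the choice by likeness to Cryab brings about.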

How the data were processed

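RNA of kidney cortex was sequenced as stranded mRNA libraries in 3 PT-I-PpoI and 3 wild type samples. The authors deposited raw read pair counts per gene. Per the labels' protocols the mapper was HISAT2 and the genome mm9. Per the file headers, exons of a UCSC mm10 annotation were counted with featureCounts 1.5.2. Of 23204 genes matched by symbol, 99.3% overlapped their GRCm38.p6 (mm10) position. The header shows no strand option and no option to count pairs that map to several places or touch several genes. The exon length used for levels per kilobase is another column that the authors deposited. The authors also deposited regularized log2 values (for which the submitters' processing notes list DESeq2), used here only in an alternative test.

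Counts were tested in R 4.3.3 with edgeR 4.0.16 (default expression filter, TMM factors, quasi-likelihood test, two-sided, Benjamini-Hochberg adjustment over all 13977 genes tested, threshold 0.05), after a check of the procedure on simulated counts. DESeq2 1.42.0, limma 3.58.1, other factors and filters, a replicate block, the name form as a term, leaving out each library, and Cryab and Hspb2 counted together were alternatives. Log2 CPM used a prior count of 2. Intervals are at the 95% level. The members, lists and tests were chosen with earlier results of these data known. Named genes are all members, the 3 smallest p values of each list with any member that passed, the 5 genes most like Cryab, and genes overlapping or flanking the Cryab and Hspb2 pair. Others are said to have been chosen after their values were seen.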

Additional observations from a re-analysis of the deposited data

How the results depend on the processing

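Cryab had a log2 fold change of 0.73 on the deposited rlog values, a scale that shrinks differences, and 1.20 to 1.28 under the other alternatives that kept all libraries, past the threshold in each. It was 1.06 to 1.39 when single libraries were left out. Cryab then passed only when the one left out was replicate 3 of PT-I-PpoI or replicate 2 of wild type, so that 0 to 1 of the 6 genes passed. Cryab was chosen by its difference in these same libraries, so its passing under an alternative is no independent support. Hspb1, Hspb2, Hspb6 and Hspb7 kept their direction and did not pass under any alternative run. Hspb8 did not pass either and ran from -0.10 to 0.21 over single libraries left out. The number of genes that passed, 19, was 47 with no filter on low counts, 198 by DESeq2, 64 with the form of the library name in the model, and 0 to 625 with single libraries left out. With the replicate number as a block it was 40. The labels do not say whether equal numbers pair the samples. The correlations of deviations for equal numbers were 0.22, -0.13 and 0.16, and not every sample correlated best with its own number. With 3 libraries in each group these values cannot decide whether samples were paired. Reversals among the other named genes were that of Hspb11 when the name form was in the model (-0.0025) and those over single libraries left out, of Hspb11 (-0.030 to 0.10), 1110032A03Rik (-0.072 to 0.045), 2310030G06Rik (-0.12 to 0.0060) and Upk1b (-1.11 to 0.29). The cause of these changes was not tested. Of the 6 genes, Hspb2 had the fewest read pairs, 24 to 48 per library, which limits its precision.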
